A study of Mus musculus with 1790 samples.

Results

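GABA, the main inhibitory transmitter of the cortex, is made from glutamate, packed into vesicles, taken back across the cell membrane and broken down in mitochondria. The genes described here cover those steps: Gad1 and Gad2 for synthesis, Slc32a1 and Slc6a11 for transport, and Abat for breakdown. They were chosen by name, and these 5 were followed out of the 49915 gene names in the deposited tables, wherever a table had a row. The table of P15 had no row for Gad1, so 4 of the 5 were followed at that age.

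Gad1 and Gad2 encode separate glutamate decarboxylases, the enzymes that make GABA, and their mRNAs define GABAergic neurons. Slc32a1 encodes the vesicular transporter that loads GABA and glycine into synaptic vesicles. Slc6a11 encodes a GABA transporter of the plasma membrane that is best known from astrocytes. Abat encodes GABA transaminase, which starts the breakdown of GABA in neurons and glia alike. Cortical interneurons are born in the ventral forebrain, among other places in the preoptic area (POA) and the caudal ganglionic eminence (CGE), where Nes marks dividing progenitors and Dcx marks young migrating neurons.

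The study profiled single mouse cells on the path to cortical neurogliaform cells (NGCs), interneurons that release GABA diffusely. At E14.5, 2106 cells of wild-type POA and 4115 cells of wild-type CGE were captured in droplets, and 352 wild-type POA progenitors, dye-labelled at the ventricular surface (FlashTag), were captured on C1 chips. Another 418 tdTOM+ POA precursors of E14.5 were also captured on C1 chips, as were Htr3a-GFP+ cells of the somatosensory cortex, sorted by tdTOM into 196 positive and 194 negative cells at P15 and 301 positive and 280 negative cells at P30. A further 47 tdTOM+/GFP+ cortical cells of P14 to P25 were patched and sequenced (patch-seq). The C1 and patch-seq cells other than FlashTag came from untreated mice carrying Hmx3-Cre, the R26 tdTOM reporter and Htr3a-GFP, so that tdTOM marked cells whose ancestors used the Hmx3 transgene and GFP marked use of the Htr3a transgene. Both transgenes were bacterial artificial chromosomes, and Hmx3 itself is not used after birth, so tdTOM in the cortex reports lineage alone. The postnatal sorts were made from pooled brains, and no label names an animal: each sort or collection was therefore treated as 1 sample without replicates, no test was run, and no p-value is given. The patched cells were taken on several days and so from several animals, but the labels do not say which cells share one. The strain of the wild-type embryos is given in conflicting ways, as set out below with the embryonic C1 collections.

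Within the postnatal C1 and patch-seq cells, the deposited labels give each cell a transcriptional subtype or call it inconclusive. Below, Dock5 and Lsp1 are the Lamp5 subtypes named for those genes, NGC stands for tdTOM+ cells of either label, and "other subtypes" are tdTOM- cells of any remaining label, among them Vip, Sncg and other Lamp5 cells. The authors' classifier set the labels from these same profiles, so every difference between labels is a description. The labels matched their markers: the neurogliaform list (Lamp5, Ndnf, Npy, Reln and Id2) summed to 17877 CPM in NGCs against 2942 in other subtypes at P15, and to 9787 against 3511 at P30.

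Levels are given as CPM, a gene's counts per 1000000 counts of its group (both summed over cells), with exact Poisson 95% intervals in brackets. These intervals cover counting error only and are too narrow for differences between cells. Fold changes are log2 ratios after adding 10 CPM to both groups, and a gene was counted as past the threshold at 2-fold. Beside each count of members stands the percentage of all genes with at least 10 CPM in a compared group that passed the same threshold. CPM is not corrected for length, so levels are compared between groups for 1 gene and not between genes. The droplet cells held 2515 to 65782 counts each (median 7574 in POA and 5710 in CGE), the embryonic C1 cells 100168 to 939213, the postnatal C1 cells 18412 to 991458 and the patched cells 33826 to 15968484. The study's methods give 2106 POA and 4115 CGE cells as kept after filtering, as in the deposited tables. The numbers they give as recovered are higher for POA than for CGE, and for CGE fall below the number kept. The labels were followed here. Regional markers were checked after this was seen, and their summed levels went with the labels. Hmx3 and Dbx1, of POA, stood at 16.7 and 64.1 CPM in the library labelled POA and at 0.182 each in that labelled CGE. Nr2f1, high in CGE, stood at 201.5 and 508.7, Nr2f2 at 232 and 345, and Sp8 at 11.1 and 40.4. Other markers were less clear: Nkx2-1, of POA, stood at 384 and 152 CPM, and Prox1, of CGE, at 51.4 and 65.0. Prox1 was counted in 29.4% of POA and 25.4% of CGE cells. Only 12 cell barcodes were shared between the droplet libraries. Haemoglobin transcripts, which neurons should lack, were counted in 98.6% of POA and 92.4% of CGE droplet cells, at a median of 0.0533% and 0.0451% of a cell's counts, which gives the reach of free RNA in these libraries.

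Gad1, Gad2 and Slc32a1 lie on the same chromosome. In GRCm38 with the GENCODE annotation, all on the plus strand, Gad1 spans 70553072 to 70602014, Gad2 22622205 to 22693874 and Slc32a1 158610767 to 158615748 on chromosome 2. Slc6a11 spans 114131241 to 114249952 on chromosome 6, and Abat 8513429 to 8621568 on chromosome 16. Their merged exons number 21 for Gad1, 16 for Gad2, 2 for Slc32a1, 14 for Slc6a11 and 18 for Abat. Gad1, Slc32a1 and Slc6a11 overlap an antisense gene (Gad1os, Gm14205 and Gm8132), which the stranded counting of the C1 cells keeps apart. Gad2 overlaps the small RNA genes Gm23636 and Mir3967 on its own strand, and Abat overlaps none.

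RefSeq start sites of build GRCm38.p6 were matched for 4 of the 5 members. Sequence from the 250 bases before them is shown because Gad1, Gad2 and Slc32a1 ran alike along the order of maturation below and Slc6a11 did not. Each line gives the part of the 250 bases before the start that no annotated exon covers, on the plus strand, from chr2:70561879-70562041 for Gad1, chr2:22622077-22622204 for Gad2, chr2:158610508-158610757 for Slc32a1 and chr6:114130991-114131240 for Slc6a11. The RefSeq starts of Gad1 (70562129) and Gad2 (22622327) lie inside the GENCODE spans given above, so the annotations differ for these genes. Of their 250 bases, 87 and 122 follow the start of a GENCODE exon and are not printed. Capitals mark the letters of a searched motif.
Gad1: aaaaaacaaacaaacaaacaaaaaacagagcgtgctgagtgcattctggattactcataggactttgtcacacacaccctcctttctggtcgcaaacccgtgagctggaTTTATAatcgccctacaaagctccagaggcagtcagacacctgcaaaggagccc
Gad2: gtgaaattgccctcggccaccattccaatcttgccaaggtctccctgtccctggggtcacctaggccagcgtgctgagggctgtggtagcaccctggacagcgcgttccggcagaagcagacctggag
Slc32a1: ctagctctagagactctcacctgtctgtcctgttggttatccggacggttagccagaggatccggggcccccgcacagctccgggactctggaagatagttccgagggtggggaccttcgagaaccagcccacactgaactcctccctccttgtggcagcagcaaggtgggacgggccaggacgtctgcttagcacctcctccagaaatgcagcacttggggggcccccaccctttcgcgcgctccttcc
Slc6a11: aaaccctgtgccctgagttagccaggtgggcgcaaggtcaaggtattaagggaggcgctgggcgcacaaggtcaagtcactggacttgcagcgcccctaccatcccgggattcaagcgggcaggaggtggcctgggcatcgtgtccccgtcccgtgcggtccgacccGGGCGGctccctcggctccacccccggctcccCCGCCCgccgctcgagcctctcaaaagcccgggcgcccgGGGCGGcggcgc

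On both strands of the full 250 bases, Slc6a11 held the GC box letters GGGCGG or CCGCCC at 3 places and Gad1 at 1, the latter in the stretch not printed. Of 32851 promoters of the same length, 32.7% held them. Gad1 also held TTTATA, the reverse strand of the TATA box letters TATAAA, at -141 to -136 from its start, as 12.4% of promoters did in either direction. The homeodomain core TAATTA, which factors of the Dlx kind bind, was in 4.84% of all promoters, and the E-box CAGCTG of proneural factors in 13.0%. Neither string was in the window of any of the 4 members. The GC content of the full 250 bases was 58% for Gad1, 64% for Gad2, 62.4% for Slc32a1 and 71.2% for Slc6a11. The median over all promoters was 52.4%.

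In the POA droplet library, Gad1, Gad2 and Slc32a1 were higher in the Dcx-rich cells than in the Nes-rich cells, Slc6a11 was low throughout and lowest at the Dcx end, and Abat was nearly level. The 1899 POA cells with a count of Dcx or Nes were ranked by Dcx minus Nes (log counts per 10000) and cut into 10 bins of equal number. Gad2 stood at 30.1 CPM [21.5 to 40.9] in bin 1, at 84.7 in bin 3, at 125.4 in bin 4 and at 170.4 [152.7 to 189.5] in bin 10. Most of the difference along the order thus lay within its first 4 bins, after which Gad2 varied between 115.4 and 170.4. Gad1 went from 6.01 CPM [2.60 to 11.8] to 59.6 [49.4 to 71.4], and Slc32a1 from 6.76 [3.09 to 12.8] to 79.7 [67.8 to 93.1]. For these 3 genes the log2 folds were 2.12 (Gad1), 2.17 (Gad2) and 2.42 (Slc32a1), each past 2-fold, as were 18.4% of the genes (8.46% higher in the last bin).

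Abat, for the breakdown enzyme, held 48.1 CPM [37.0 to 61.4] at the Nes end of POA and 58.1 at the Dcx end, and its 10 bins lay between 36.0 and 58.1. Slc6a11 held 7.51 CPM [3.60 to 13.8] in the first bin and 1.50 [0.310 to 4.39] in the last, under 10 CPM in all 10 bins, so that its log2 fold of -0.61 rests on few counts. The astrocyte list, whose genes radial glia also use, summed to 863 CPM in bin 1 and 42.1 in bin 10 with Aqp4 at 0 in the latter, and its part in the Slc6a11 difference was not tested. The median log2 fold of the 5 members was 2.12, against -0.02 over the 9658 genes tested.

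The CGE library showed the same arrangement, with more Gad1, Gad2 and Slc32a1 than POA at the Dcx end. Over 10 bins of its 3666 ordered cells, Gad2 went from 60.9 CPM [51.4 to 71.7] in bin 1 and 55.8 in bin 2 to 141.1, 224.1 and 286.7 in the next bins and 387.4 [360.3 to 415.9] in the last. Gad1 went from 16.1 CPM [11.4 to 22.1] to 146.5 [130.0 to 164.4] and Slc32a1 from 13.5 to 160.3. All 3 were past 2-fold, with log2 folds of 2.59 for Gad1, 2.49 for Gad2 and 2.85 for Slc32a1, beside 8.96% of all genes that were higher. Slc6a11 went the other way, from 15.6 CPM [11.0 to 21.6] and 9.98 in the first bins to between 1.34 and 4.09 in the remaining bins, with a log2 fold of -1.03 and a counting interval of -1.32 to -0.58 that includes values within 2-fold. Genes past 2-fold made up 19.3% in all and 10.4% in the lower direction. Here the astrocyte list went from 1070 to 46.5 CPM. Abat varied between 29.6 and 43.4 CPM, with a log2 fold of 0.16.

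**Figure D1:**
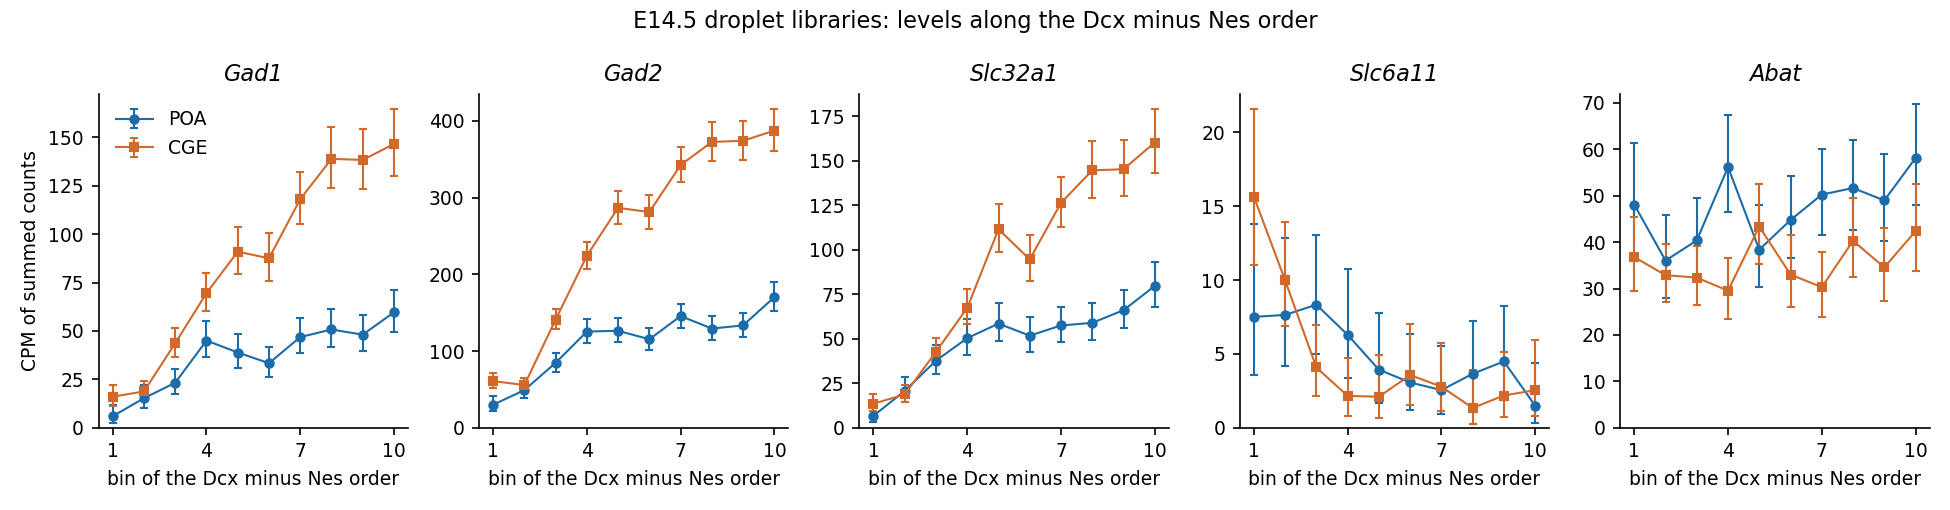
CPM of each member (y axis) in 10 bins of E14.5 droplet cells ordered from Nes-rich (bin 1) to Dcx-rich (bin 10), for POA (circles) and CGE (squares), with exact Poisson 95% intervals as bars. In the last bin Gad1, Gad2 and Slc32a1 reach 59.6, 170.4 and 79.7 CPM in POA and 146.5, 387.4 and 160.3 in CGE, while Slc6a11 is highest in the early bins and Abat shows no trend.

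Detection in single cells followed the summed levels. Gad2 was counted in 15.8% of POA cells in bin 1 and 64.0% in bin 10, and in 30.0% and 78.4% of CGE cells. Thinned to 3419 counts per cell, those shares were 8.95% and 41.3% in POA and 20.7% and 70.2% in CGE. Free RNA bears on such shares, as the haemoglobin counts show, and no cell class known to lack Gad2 was defined here to set a background. The authors had removed clusters that were not GABAergic, although cells rich in haemoglobin counts and cells with counts of Slc17a6 remained. Single cells at the Nes end therefore cannot be called GABAergic from 1 count.

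Gad1 and Gad2 were counted together in more cells at the Dcx end, where each gene alone was also counted in more cells. Whether they met more often than those shares give was not tested. A count of both was found in 0.526% of POA cells in bin 1 and 32.8% in bin 10, and in 3.54% and 38.8% of CGE cells. Gad2 was the decarboxylase more often seen alone: 581 POA cells held Gad2 without Gad1 against 123 with the reverse, and in CGE the numbers were 1435 and 276. Gad1 or Gad2 together with Slc32a1, the means both to make GABA and to pack it, was counted in 2.11% of POA cells in bin 1 and 43.4% in bin 10, and in 3.81% and 48.1% of CGE cells. These are shares of cells in which both transcripts were caught at this depth, not shares that express them.

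At the same bin number, POA cells held less Gad1 and Gad2 than CGE cells in the later part of the order. No member was past 2-fold in bins 1 to 4, where 2.13%, 3.14%, 3.7% and 3.99% of genes were. In bins 5 and 6, Gad1 and Gad2 were past 2-fold lower in POA, beside 4.09% and 4.28% of genes, and in bins 7 to 9 Slc32a1 was as well, beside 4.47%, 3.62% and 4.01%. In bin 10 the log2 folds were -1.17 for Gad1 [-1.45 to -0.89], -1.14 for Gad2 and -0.93 for Slc32a1, so that 2 members were past 2-fold beside 3.81% of all genes (1.4% in that direction). Abat differed in the other direction within 2-fold, by 0.38. The bins did not cover the same scores, bin 10 spanning 2.08 to 2.93 in POA and 2.44 to 3.67 in CGE. Each tissue was 1 library, so this is a difference between libraries, and region, dissection and library cannot be told apart.

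Transcripts of glutamatergic neurons differed between the libraries as well, and their part in the difference of Gad1 and Gad2 was not tested. Slc17a6, which loads glutamate into vesicles, was already past 2-fold higher in POA in bins 2 to 4, where no member was. In bin 10 Slc17a6 held 69.2 CPM in POA and 6.12 in CGE, and the glutamatergic list of 6 genes summed to 144 and 56.7 CPM there. Among POA cells of bins 6 to 10, the 322 cells with a Slc17a6 count (median 13294 counts) had 31.0 CPM of Gad1, 101.2 of Gad2 and 38.2 of Slc32a1, while the 627 cells without one (median 6905 counts) had 64.8, 177.4 and 88.0. Abat was close in both sets, at 47.5 and 53.8 CPM. With cells holding a Slc17a6 or Slc17a7 count left out of both libraries, an alternative chosen after seeing the data, the log2 folds of bin 10 were -0.54 for Gad1, -0.92 for Gad2 and -0.46 for Slc32a1, and 0 members were past 2-fold. At scores of at least 2, with all cells kept, Gad1 stood at -1.18 and Gad2 at -1.20, and at scores of 1 to 2 they stood at -1.06 and -1.14, both also chosen after seeing the data.

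On C1 chips, where each cell was read far more deeply, the tdTOM+ precursors of E14.5 held far more of Gad1, Gad2 and Slc32a1 than the FlashTag progenitors, which held more of Slc6a11. Gad2 ranged from 0 to 3930 CPM over the 418 tdTOM+ cells with a median of 405, and from 0 to 1712 over the 352 FlashTag cells with a median of 0. Summed, Gad2 stood at 536 CPM against 46.8, a log2 fold of 3.27. Gad1 ranged from 0 to 2291 CPM with a median of 65.5 in tdTOM+ cells and from 0 to 1895 with a median of 0 in FlashTag cells, summing to 155.7 against 24.9 (2.25). The ranges overlapped for both genes, but a count of either decarboxylase was found in 61 of the 352 FlashTag cells and in 408 of the 418 tdTOM+ cells. Both shares are of cells left after the authors removed those they judged not GABAergic. Slc32a1 stood at 26.8 CPM against 1.14 (1.72), with a highest tdTOM+ cell of 585 and a median of 0 in both collections.

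Slc6a11 was the member higher in progenitors: 42.2 CPM in FlashTag cells against 1.20 in tdTOM+ cells, a log2 fold of -2.22, with counts in 30.4% and 3.83% of the cells. Abat was counted in 83.3% of tdTOM+ and 45.5% of FlashTag cells and stood at 207 against 112 CPM (0.83), within 2-fold. In all, 3 members were past 2-fold higher in tdTOM+ cells and 1 lower, where 7.53% of genes were higher and 15.3% lower (22.8% together). After thinning to 169523 counts per cell, the shares kept their order, with Gad2 in 91.6% and 12.5% of the cells and Slc6a11 in 3.46% and 28.8%. The tdTOM+ and FlashTag collections differed in genotype, chip and way of collection as well as in stage, and these cannot be told apart. The strain may differ as well: the labels give C57BL/6 for the FlashTag mice, whereas the study's methods name CD1. The methods give a C57BL/6 background for the transgenic mice. For the wild-type embryos of the POA and CGE droplet libraries they name CD1 in one place and C57BL/6 in another. The strain of those libraries is therefore not settled here. The progenitor list summed to 568 CPM in tdTOM+ and 8585 in FlashTag cells, the young neuron list to 6131 and 1342, and the astrocyte list, which shares genes with radial glia, to 22.3 and 1995.

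Within the FlashTag collection the synthesis genes appeared at the Dcx end of the order. Over 5 bins, Gad2 stood at 6.07, 6.47, 8.63, 38.0 and 192.5 CPM and Gad1 at 0, 0.101, 5.27, 18.1 and 119.5. Slc6a11 stood at 33.5, 69.1, 44.7, 30.9 and 13.0 CPM and so was highest in bin 2, while the cells with neither Dcx nor Nes held 65.2. Slc32a1 never passed 2.50 CPM in these bins. The packing gene thus stood at 1.41 CPM in the bin where both decarboxylases were highest, and 1 FlashTag cell held 29.8% of the collection's Gad1 counts. In that order Gad1 and Gad2 were past 2-fold higher, beside 29.7% of genes past 2-fold.

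Within the tdTOM+ precursors the order was flat by comparison. Gad1 lay between 123.6 and 178.8 CPM and Gad2 between 475 and 610 over the 5 bins. Slc32a1 went from 12.8 and 18.2 CPM in the first bins to 30.9, 40.2 and 33.5 in the later ones, a log2 fold of 0.93, and 0 of the 5 members were past 2-fold where 6.56% of genes were. Both Gad1 and Gad2 were counted in 302 of the tdTOM+ cells, and Slc32a1 beside either of them in 185. Gad2 alone was seen in 95 cells and Gad1 alone in 11.

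**Figure D2:**
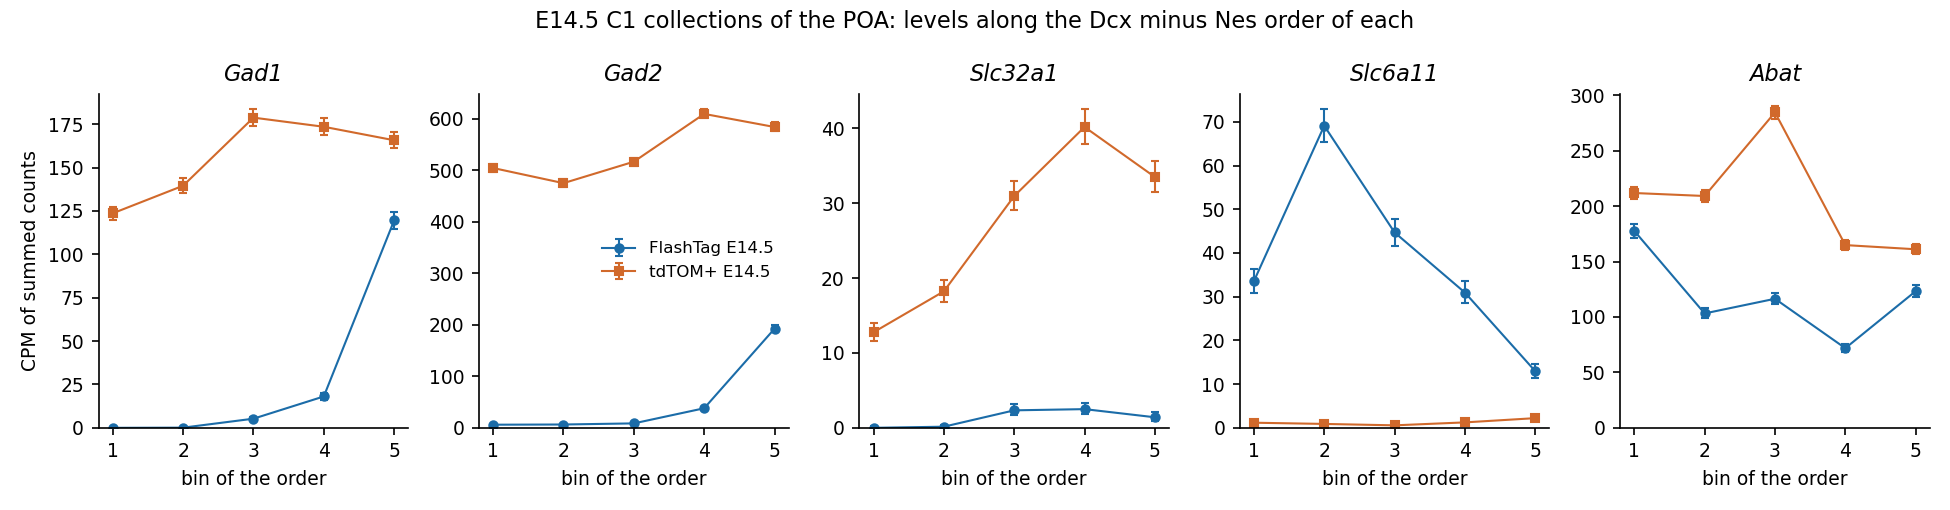
CPM of each member (y axis) in 5 bins of the Dcx minus Nes order of FlashTag (circles) and tdTOM+ (squares) POA cells of E14.5 on C1 chips, with exact Poisson 95% intervals as bars. Gad2 lies between 475 and 610 CPM in all bins of tdTOM+ cells and reaches 192.5 in the last FlashTag bin, while Slc6a11 is higher in FlashTag cells, with its peak of 69.1 in bin 2.

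In the postnatal cortex, tdTOM+ cells held far more Gad1, Gad2 and Slc32a1 than at E14.5, and Slc6a11 was higher as well, though low at each age. No share over all genes is given for this comparison. On the 11449 gene rows that the tdTOM+ tables of E14.5, P15 and P30 share, Slc32a1 stood at 33.0, 483 and 301 CPM, and Gad2 at 661, 3336 and 3861. Slc6a11 stood at 1.49, 25.6 and 26.0 CPM, and Abat at 256, 435 and 301. Gad1, on the 16384 rows that E14.5 and P30 share, stood at 157 and 3491 CPM. Age, tissue and chip cannot be told apart here, and the order of P15 and P30 for Gad2 depends on the rows: over all rows of each table it was 3313 and 3156.

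At P15, NGCs held more Gad2 than other subtypes, while Slc32a1, Slc6a11 and Abat were within 2-fold. Gad2 ranged from 1103 to 9336 CPM with a median of 4304 over 69 NGCs, and from 51.2 to 6124 with a median of 1709 over 89 cells of other subtypes. The lower quartile of NGCs (3395) lay above the upper quartile of the others (2911), although the ranges overlapped. Summed, the levels were 4578 and 2223 CPM, a log2 fold of 1.04. Slc32a1 stood at 515 against 395 CPM (0.38), Slc6a11 at 19.8 against 33.5 (-0.54) and Abat at 356 against 546 (-0.60). Thus 1 of 4 members was past 2-fold, beside 13.8% of genes (5.92% higher).

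Across labels at P15, Gad2 formed a graded order. It stood at 4579 CPM in tdTOM+ Dock5 cells (36 cells), 4576 in tdTOM+ Lsp1 (33) and 4259 in tdTOM- Lsp1 (20), then at 3521 in tdTOM- other Lamp5 (14) and 2968 in tdTOM+ other Lamp5 cells (16). Below these came tdTOM- Vip cells at 2090 CPM (63), tdTOM- Sncg at 1527 (10) and tdTOM+ Vip at 1325 (24). Among neighbours in this order only Dock5 and Lsp1 overlapped in their counting intervals. Vip subtypes spanned nearly the whole scale, from 445 CPM of Gad2 in Vip Crispld2 Htr2c (5 cells) and 745 in Vip Crispld2 Kcne4 (10) to 4096 in Vip Igfbp6 Pltp (11), all from the tdTOM- sort.

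Slc32a1 was far more even: it was counted in every cell at P15, and labels lay between 348 and 564 CPM. Abat was highest in tdTOM- Sncg cells at 897 CPM, of which 1 cell gave 28.4% of the counts, and stood at 326 in tdTOM- Lsp1 cells. Slc6a11 lay between 15.8 and 48.2 CPM with every pair of neighbours overlapping. Astrocyte transcripts were scarce in these sorts: the astrocyte list summed to 40.0 CPM in NGCs, with Aqp4 and Gja1 at 0, and to 8.42 in other subtypes, with Aqp4, Gfap and Gja1 at 0.

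At P30 all 5 members could be followed, and Gad1 and Gad2 were again higher in NGCs, though within 2-fold. Gad1 ranged from 606 to 7404 CPM with a median of 3685 over 111 NGCs, and from 40.4 to 5626 with a median of 2132 over 96 cells of other subtypes. Gad2 ranged from 56.7 to 7191 CPM with a median of 3214 and from 9.98 to 5406 with a median of 1461. The summed levels were 3797 against 2344 CPM for Gad1 (log2 fold 0.69) and 3399 against 1730 for Gad2 (0.97). The upper quartile of Gad2 in other subtypes (2173) lay below the lower quartile in NGCs (2253). Slc32a1 stood at 236 against 275 CPM (-0.21), Slc6a11 at 19.2 against 27.3 (-0.35) and Abat at 246 against 274 (-0.15). None of the 5 members (0) was past 2-fold, where 14.3% of genes were. Gad2 lay so near the threshold that leaving out the top cell of each group gave 1.01.

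**Figure D3:**
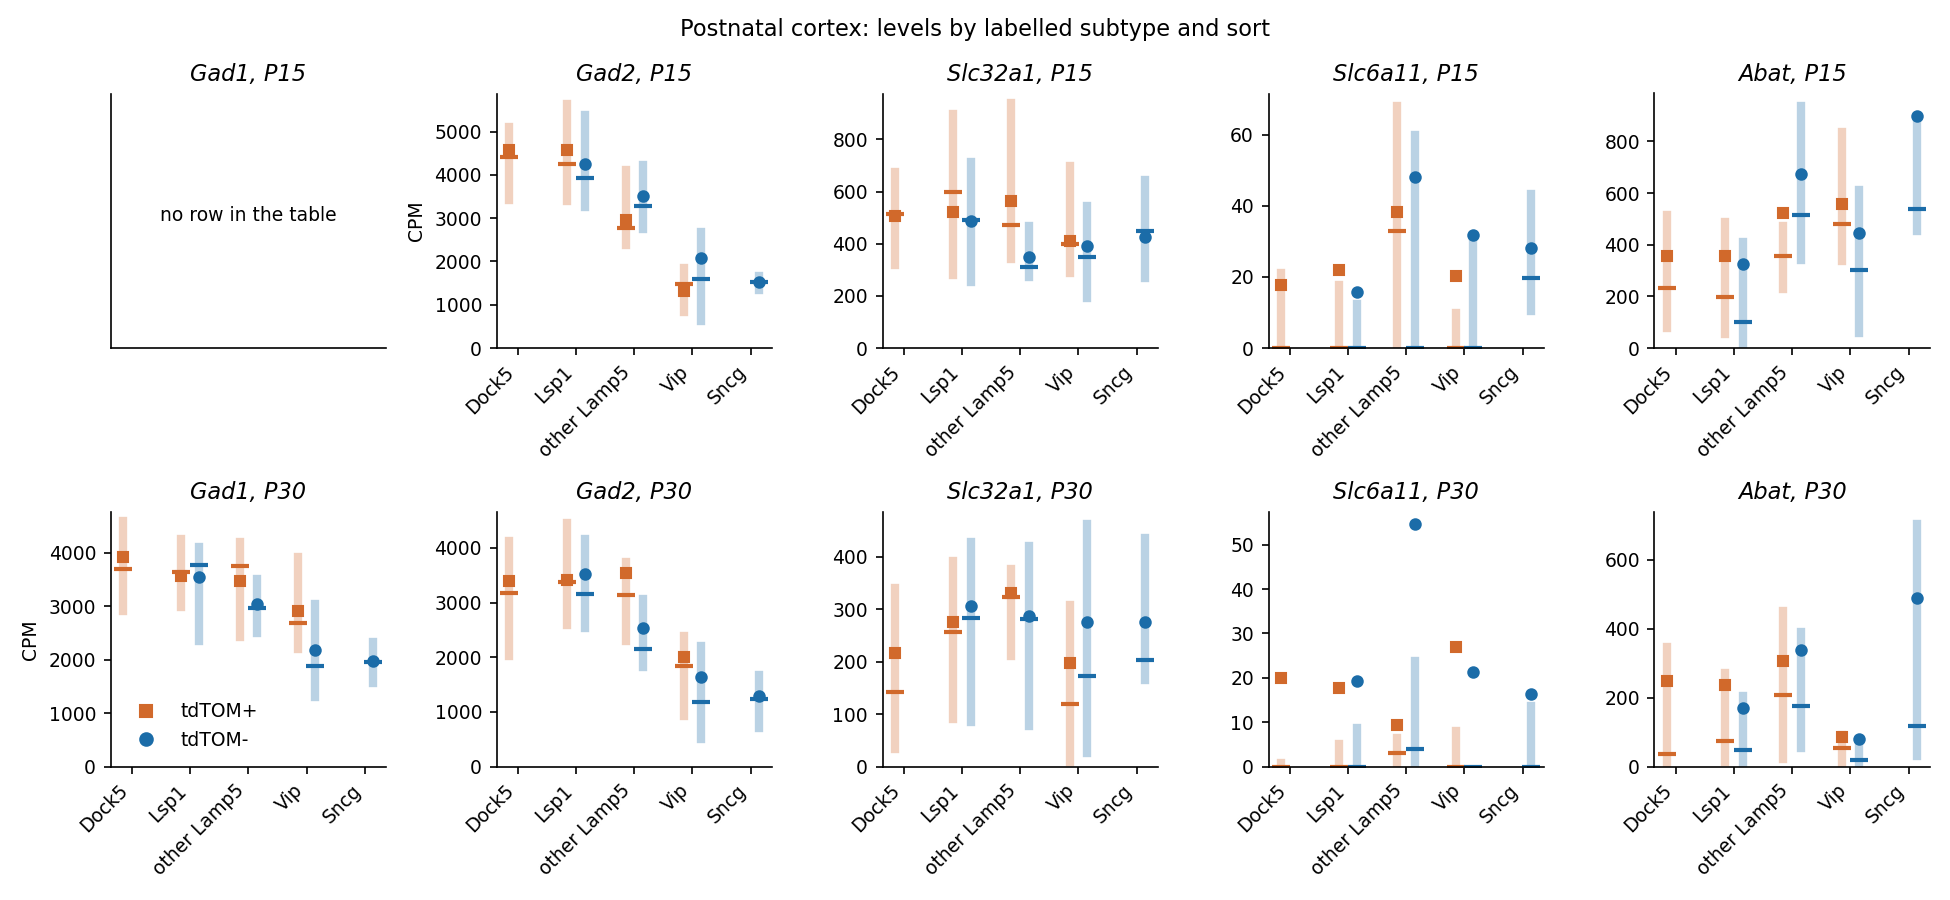
CPM of each member by deposited label and sort at P15 and P30, for labels with at least 5 cells; squares (tdTOM+) and circles (tdTOM-) are summed levels, dashes the median cell and pale bars the range from lower to upper quartile of cells. Gad2 is highest in Dock5 and Lsp1 cells at P15 (4579 and 4576 CPM) and low in Vip and Sncg cells, Slc32a1 differs little, and Gad1 has no row at P15.

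Taken as whole classes, Lamp5 cells at P30 stood above Vip and Sncg cells for both decarboxylases. Gad1 stood at 3914 CPM in tdTOM+ Dock5 cells (76 cells), 3569 in tdTOM+ Lsp1 (35) and 3546 in tdTOM- Lsp1 cells (28). Other Lamp5 cells held 3469 in the tdTOM+ sort (19) and 3044 in the tdTOM- sort (21). Vip cells held 2903 in the tdTOM+ sort (15) and 2172 in the tdTOM- sort (47), and tdTOM- Sncg cells 1978 (25). Gad2 stood at 3550 CPM in tdTOM+ other Lamp5, 3532 in tdTOM- Lsp1, 3420 in tdTOM+ Lsp1 and 3387 in Dock5 cells. It stood at 2536 in tdTOM- other Lamp5, 2001 in tdTOM+ Vip, 1638 in tdTOM- Vip and 1291 in Sncg cells. Neighbours whose intervals overlap are not told apart: for Gad1, tdTOM- Lsp1 with each of its neighbours, and for Gad2, tdTOM+ other Lamp5 with tdTOM- Lsp1 and tdTOM+ Lsp1 with Dock5. Single subtypes did not all keep the order of their classes. In the tdTOM- sort, Vip Igfbp6 Car10 (5 cells) held 4342 Gad1 and 3688 Gad2 counts out of 1325483. Lamp5 Ntn1 Npy2r of that sort (5 cells) held lower shares of both, with 2943 and 2148 counts out of 1116178. Every one of the 581 cells at P30 held counts of both Gad1 and Gad2. Slc32a1 lay between 197 and 330 CPM over the labels.

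Abat had another arrangement at P30. It was highest in tdTOM- Sncg cells at 490 CPM, stood at 250 in Dock5 cells, and was lowest in tdTOM+ and tdTOM- Vip cells at 84.2 and 78.5. At P15, in a table with other rows, the same Vip labels had stood at 558 and 446 CPM, above Dock5 and Lsp1 cells. Its single cells varied more than these sums convey, with a median of 44.1 CPM in NGCs and 53.0 in other subtypes. Slc6a11 lay between 9.34 and 54.6 CPM, and 1 cell gave 55.1% of the counts behind the highest value, in tdTOM- other Lamp5 cells.

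Dock5 and Lsp1 cells hardly differed in the C1 sorts. At P15 the log2 fold of Gad2 between them was 0.00 [-0.02 to 0.02], and 0 of 4 members were past 2-fold beside 19.3% of genes. At P30, the log2 fold of Dock5 over Lsp1 was 0.13 for Gad1 and -0.34 for Slc32a1, and 0 of 5 members were past 2-fold beside 19.4% of genes. The Lsp1 label was also found in the tdTOM- sort, and there too the members were close: 0 of 4 were past 2-fold between sorts at P15 (23.7% of genes) and 0 of 5 at P30 (30.4% of genes). Counting intervals do not include the spread between animals, so these small differences are not shown to be nil.

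In patched cells Gad1 was higher in Dock5, by a margin that depended on deep Lsp1 cells. Gad1 ranged from 1026 to 5041 CPM with a median of 3216 over 20 Dock5 cells, and from 151 to 4834 with a median of 2333 over 27 Lsp1 cells. No Dock5 cell was under 1000 CPM of Gad1 and 5 Lsp1 cells were, so the groups overlapped except at the low end. Summed, Gad1 stood at 2915 CPM in Dock5 and 1272 in Lsp1 cells, a log2 fold of 1.19 and past 2-fold as were 18.3% of genes. The deepest Lsp1 cell held 30.0% of all Lsp1 counts and only 151 CPM of Gad1. Among other deep Lsp1 cells, those of 7614463 and 3468521 counts held 504 and 210 CPM, and that of 3941657 counts held 2407. Without the deepest cell alone, a choice made after seeing the data, Gad1 stood at 1752 CPM in Lsp1 cells and the fold at 0.73. With every cell thinned to 1 depth, Gad1 stood at 3015 against 2056 CPM (0.55), again within 2-fold. The subtypes also differed in age, with 3 Dock5 cells of P23 and 2 of P25 against 1 Lsp1 cell of P23 and none later. In cells of P14 to P18, which still include the deepest Lsp1 cell (P15), the log2 fold of Gad1 was 1.24.

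The other members differed less between patched subtypes. Gad2 stood at 1478 CPM in Dock5 and 1114 in Lsp1 cells (0.40), yet its median was lower in Dock5, 1430 against 1764, and without the deepest cell the Lsp1 sum was 1544. Slc32a1 stood at 53.0 against 35.2 CPM, Slc6a11 at 16.3 against 26.8 and Abat at 179 against 226. The direction for Slc6a11 was not stable: its log2 fold was -0.48, -0.05 without the deepest Lsp1 cell, and 0.66 with every cell thinned to 1 depth. All 7 astrocyte markers were detected in both groups, summing to 602 CPM in Dock5 and 1109 in Lsp1 cells. The oligodendrocyte list summed to 1266 and 6296 CPM, and the glutamatergic list to 25.2 and 269. Transcripts typical of other cell types were thus present in the patched material, with higher sums in Lsp1 cells. The deepest Lsp1 cell held 30.0% of all Lsp1 counts, and these sums are not given without it. The part of such transcripts in the differences between subtypes was not tested.

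**Figure D4:**
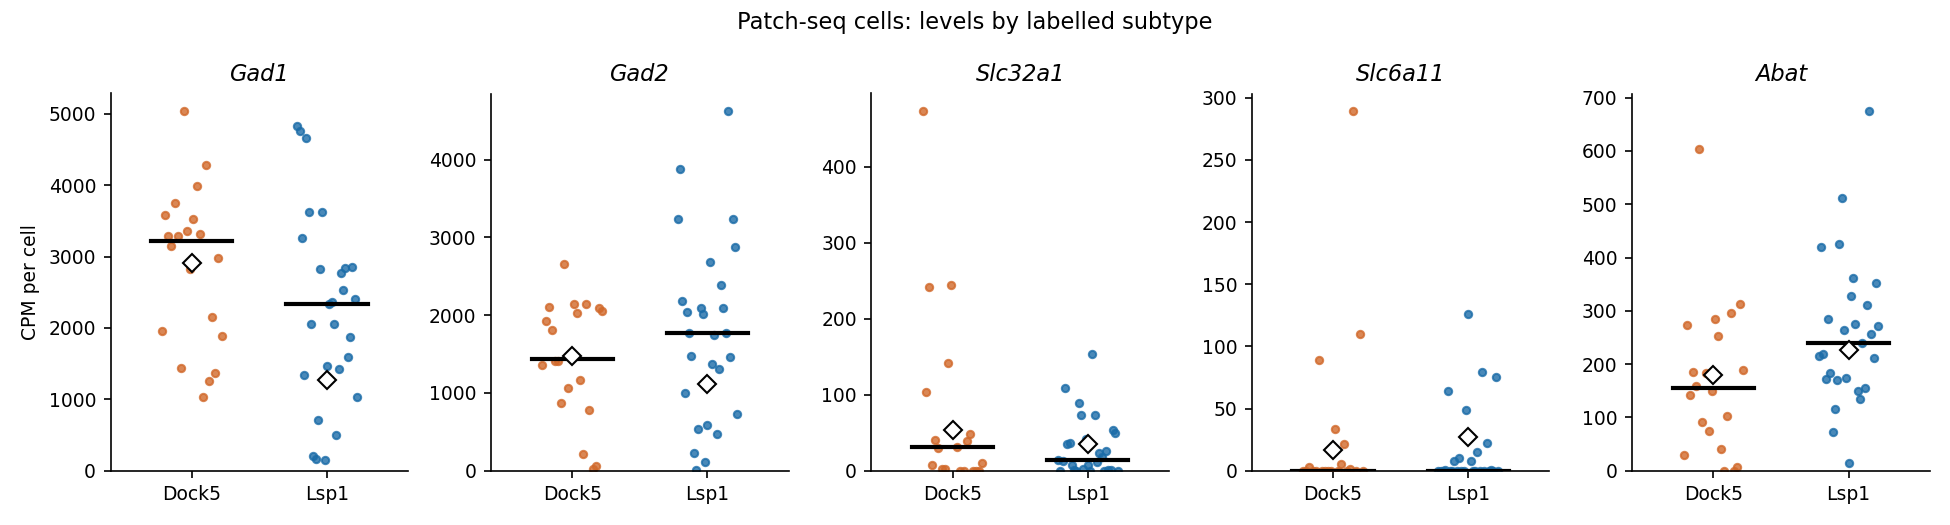
CPM of each member in every patched cell (dots) of the labels Dock5 (20 cells) and Lsp1 (27 cells), with the median as a line and the summed level as an open diamond. Gad1 varies from 151 to 4834 CPM among Lsp1 cells, and the Lsp1 diamond of Gad1 (1272) lies below the median (2333).

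The balance of the decarboxylases differed between the tdTOM+ cells of E14.5 and those of P30. Gad2 made up 75.0% of Gad1 plus Gad2 counts in POA and 74.7% in CGE droplet cells. Along the CGE order it went from 79.1% [72.5 to 84.8] to 72.6% [69.7 to 75.2], and along the POA order from 83.3% [69.8 to 92.5] to 74.1% [69.8 to 78.0]. In both libraries these intervals overlapped, so the ends of the orders are not told apart. On C1 chips it was 77.5% in tdTOM+ precursors and 65.3% in FlashTag cells at E14.5, and 47.6% in tdTOM+ cells at P30. The FlashTag value came from only 61 cells with a count of either gene. Their median cell stood at 100%, against 83.9% in tdTOM+ precursors, so sums and median cells put these collections in opposite orders. The share differs between ages in the direction of Gad1, with the row sets, the tissue and the chip differing too.

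At P30 the summed share also differed by label. Gad2 made up 46.4% in Dock5 cells, 48.9% and 49.9% in tdTOM+ and tdTOM- Lsp1 cells, 40.8% and 43.0% in Vip cells and 39.5% in Sncg cells. The median cell stood at 44.4% in Dock5, 48.0% and 52.0% in Lsp1, 46.0% and 43.4% in Vip and 37.5% in Sncg cells. Median cells thus put tdTOM+ Vip above Dock5, the reverse of the sums. Single cells ranged from 2.11% to 73.0% in Dock5 and from 2.20% to 94.1% in tdTOM- Vip cells. In patched cells, collected in another way, it was 33.6% in Dock5 and 46.7% in Lsp1 cells. As this is a ratio of different transcripts it shows unequal change and not which gene differed.

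**Figure D5:**
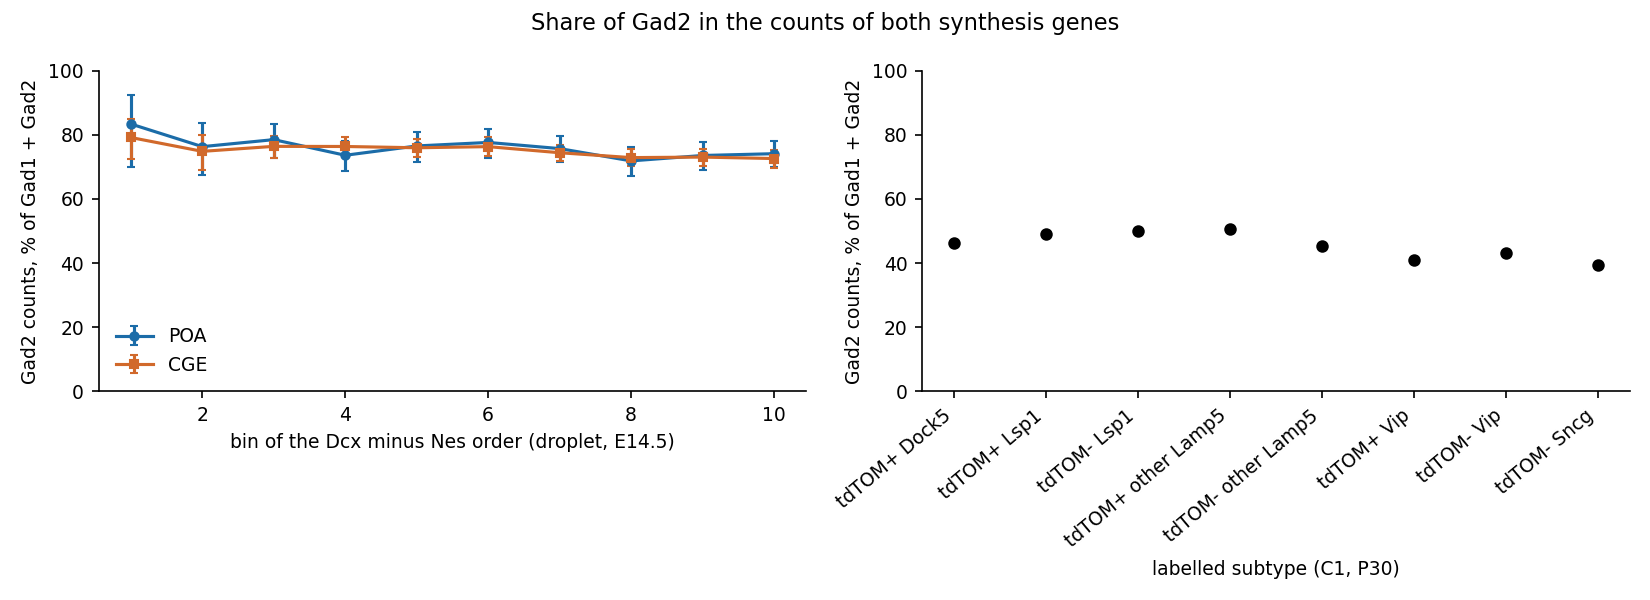
Gad2 counts as a percentage of Gad1 plus Gad2 counts (y axis), on the left in 10 bins of the E14.5 droplet orders of POA (circles) and CGE (squares), on the right by label and sort at P30, with exact Clopper-Pearson 95% intervals as bars. The droplet bins lie between 71.8% and 83.3%, and the P30 labels between 39.5% and 50.6%; the techniques differ.

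Other genes of GABA and glutamate handling were taken from a list of 23, covering the remaining GABA carriers, the GABA shunt, the supply of glutamate and the cofactor of the decarboxylases. Along the POA order, 3 of the 14 with at least 10 CPM were past 2-fold higher, 1 was lower and 10 were within. Slc1a2, a glutamate transporter, held 26.3 CPM in the first bin and 103.7 in the last (1.65), and Slc17a6 held 11.3 and 69.2 (1.90). Slc1a3, the glutamate transporter of radial glia and astrocytes, held 341.9 and 12.0 CPM (-4.00). Along the CGE order, 2 of 13 were higher and 3 were lower, among the latter Slc1a3 from 332.4 to 11.7 CPM. All genes counted here are read against the shares of genes past 2-fold given above for each comparison. Slc1a3 thus ran in the direction of Slc6a11 in both libraries.

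Between the C1 collections of E14.5, 0 of 14 were past 2-fold higher in tdTOM+ cells and 2 were lower. These were Glud1, which makes and breaks glutamate in mitochondria (84.0 against 255.3 CPM), and Slc1a3 (4.07 against 1090). Within the FlashTag order Aldh5a1, which follows Abat in the GABA shunt, held 80.7 CPM in the first bin and 26.4 in the last.

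In the cortex at P15, 5 of 16 were past 2-fold higher in NGCs and 0 lower. Slc1a1, a neuronal transporter that brings in glutamate, stood at 223 CPM in NGCs and 89.6 in other subtypes (1.23). Pdxk, a kinase of vitamin B6 that serves the cofactor of both decarboxylases and of Abat, stood at 491 against 186 CPM (1.36). Both were thus higher in the same group as Gad2. At P30, 1 of 15 was past 2-fold higher, Aldh9a1, an enzyme of a side route to GABA that did not reach 50 CPM.

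Between subtypes of NGC, 2 of 16 were past 2-fold higher in Dock5 than in Lsp1 cells at P30, one of them Glud1 at 98.1 against 42.7 CPM (1.04). Got2, a mitochondrial transaminase of glutamate, stood at 134 CPM in tdTOM+ and 60.1 in tdTOM- Lsp1 cells at P30. In patched cells 2 of 19 were lower in Dock5, Slc1a2 at 352 against 806 CPM (-1.17) and Slc17a7 at 3.80 against 65.0 (-2.44). Sorted Dock5 and Lsp1 cells of P15 held 409 and 370 CPM of Slc1a2.

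Over the 20 droplet bins of both libraries, the genes whose profiles were most like a member's were found among 4742 genes by Pearson's r of log2(CPM + 10). For Gad1 they were Gad2 (0.993), Htr3a (0.980) and Zfp57 (0.980), and for Gad2, after Gad1, Bcl11b (0.984) and Dlx5 (0.983). Slc32a1 was most like Nrxn3 (0.991), Nol4 (0.986) and Marcksl1 (0.984). Slc6a11 was most like Hsd17b12 (0.908), and Abat had no close match, with Tnks2 and App at 0.834. The bins of a library share its depth and the order itself, so these values describe the profiles and carry no p.

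Over 28 postnatal label groups and 9503 genes, Gad2 was most like Bcl11a (0.765), Ak5 (0.759) and Reln (0.730), the last a marker of neurogliaform cells. Slc32a1 was most like Sirt2 (0.787), Slc6a11 like Apoa1bp (0.794) and Abat like Map6 (0.796). Over the 16 groups of P30, Gad1 was most like Chd3 (0.893) and Gad2 (0.858). From cell to cell, Gad1 and Gad2 went together with r of 0.49 over the 111 NGCs of P30 and 0.26 over the 96 cells of other subtypes. In patched cells r was 0.61 over 20 Dock5 and 0.89 over 27 Lsp1 cells, and in tdTOM+ precursors of E14.5, at lower counts, 0.20 over 418 cells. Cells of a sort share their source, and cells differ in depth and content of foreign RNA.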

How the data were processed

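Single-cell RNA was measured in the groups described above. Every table held deposited counts for each gene in each cell. For C1 cells the authors aligned reads to GRCm38 with STAR, removed duplicates with UMI-tools and counted exonic reads by strand. For droplet cells the labels name Cell Ranger and build mm10. The authors removed shallow cells and, from the droplet libraries and the E14.5 C1 collections, clusters that were not GABAergic. All cells were kept, and 0 columns of values were left unmapped.

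Groups came from the deposited labels. Counts were summed per group to CPM with exact Poisson intervals, shares were given exact Clopper-Pearson intervals (95% throughout), and log2 folds used CPM plus 10. Ordered cells had a count of Dcx or Nes and formed 10 (droplet) or 5 (C1) bins. For thinned shares, cells were cut to the depth at percentile 10 of their comparison, and shallower cells left out. No doublet caller was run; leaving out the 5% of droplet cells with the most UMIs was an alternative. The P15 and P30 tables share only part of their rows, so ages were compared on shared rows.

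The members and gene lists were chosen with earlier results of these data known. Named were the 5 members, other pathway genes past 2-fold whose higher group reached 50 CPM (Aldh9a1 also where it did not), and the 3 genes most like each member. Some genes this rule would name are not reported here. The bounds printed for a fold hold counting error only. The steps ran in Python 3.11.15 with scipy 1.17.1 and numpy 2.4.6, tables were read with pandas 2.3.3, figures were drawn with matplotlib 3.10.9, and the code was tested on simulated data.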

Additional observations from a re-analysis of the deposited data

How the results depend on the processing

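Over 13 comparisons, 90 alternatives gave a count of members past 2-fold, and 81 of these counts were within 1.5 times the reported one. At P15, NGCs against other subtypes gave 1 member past 2-fold (Gad2), but 2 in plate rows 1 to 20 (Gad2 and Slc6a11) and 0 in plate rows 21 to 40, where Gad2 stood at 1.00 on the log2 scale. At P30 the same comparison gave 0, but 1 (Gad2) with the mean of log-transformed values, without the cell with the most counts of the gene, and in plate rows 1 to 20. Dock5 against Lsp1 in patched cells gave 1 (Gad1), but 0 with cells thinned to 1 depth and 0 without the deepest Lsp1 cell, and 2 (Slc32a1 and Slc6a11) without cells holding Slc17a7. POA against CGE in the last bin gave 2, but 0 without cells holding Slc17a6 or Slc17a7. The cause of these shifts was not tested, and leaving out the deepest Lsp1 cell or cells holding Slc17a6 or Slc17a7 was added after seeing the data. Of 157 single folds past 2-fold, 145 stayed past it and 0 changed direction. Totals without mitochondrial genes could not be tried at P15, where the table has no mitochondrial rows. No paired analysis was possible because the replicate numbers only count single cells or libraries and no label names an animal.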
